A study of Drosophila melanogaster with 19 samples.

Results

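The genes described here are 92 of the 12810 genes in a table of RNA levels in individually opened testis cysts of *Drosophila melanogaster*. They were selected on those levels: the value in early spermatocytes (EC) had to be at least 16 RPKM (reads scaled by gene length in kilobases and by library depth), and EC + 1 had to be at least 3 times the value + 1 in each of 7 other stages. Genes whose symbols start with CR, snoRNA, Or, Gr, Ir or Obp were left out, which removed *Ire1* and CR43669. Levels in *aly* mutant spermatocytes played no part in the choice. Altogether 6068 genes reached 16 RPKM in EC, and these serve as the background below because any of them could have passed. The peak in EC is therefore how the genes were found and is given as a description, with no test. The comparison of *aly* with EC and that of both late sets are the tests reported.

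A cyst is a clone of germ cells that develop in step inside a somatic envelope. *aly* libraries (2) came from arrested spermatocyte cysts of *always early* mutants, whose allele is not given in the sources used here. EC gave 3 libraries, the niche at the testis tip 2, gonialblasts (GB) 2, 4-cell (S4) and 8-cell (S8) spermatogonia 2 each and 16-cell spermatogonia (S16) 1, while late spermatocytes gave sets of 3 (LC1) and 2 (LC2) that the labels do not tell apart. Strain, age and number of animals are not given. Each cyst was opened with a detergent that leaves the nucleus whole, so mostly cytoplasmic RNA was copied, from its poly(A) end. The tissue label reads testes in every library, and the cell type label reads germline stem cell even in spermatocytes, so stages were taken from the stage label.

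After the last mitosis a fly germ cell becomes a primary spermatocyte, which grows for days while it transcribes what meiosis and sperm formation will need. Much of that programme depends on tMAC, the testis meiotic arrest complex, which contains Aly, and on testis-specific TAFs. In *aly* mutants spermatocytes arrest before the meiotic divisions, and many genes of spermatid formation stay low. The genes here were selected for levels that were high in EC and lower again in late spermatocytes, so this time course follows from the rule.

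The table holds 1 value per stage, a mean of libraries, and whole reads of 20 single libraries were recovered from these means. The LC2 mean holds 3 libraries, although 2 are labelled. The third may be a repeat run of a labelled sample, so tests of LC2 rest on more libraries than labelled samples. Libraries are lettered a, b and c by size, largest first, and values are listed in that order. Depth was 810524 to 5108668 reads per library, and 3 reads in a gene of 1 kb correspond to 0.879 RPKM in *aly*, 2.78 in EC and 3.22 in S16, in the shallowest library of each. RNA of *aly* itself stood at 33.4 and 30.4 RPKM in *aly* libraries, against 138, 109 and 63.0 in EC libraries, so the mutants still hold its RNA. Nothing states that libraries of a stage came from different animals, so tests measure the spread between these libraries. In such libraries, fewer cells of a type and less RNA per cell cannot be told apart.

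The 92 genes had EC values of 17.7 to 366.6 RPKM, with a median of 56.5. Their median in *aly* was 35.6 RPKM. Niche and GB medians were 1.40 and 3.66, spermatogonia reached 3.33 (S4), 6.29 (S8) and 6.51 (S16), and the late sets had 13.3 (LC1) and 2.88 (LC2). The ratio used by the rule had a median of 3.59 and a maximum of 6.57. For 62 genes the highest of the other stages was LC1, and for 21 it was a spermatogonial stage (S16 in 12, S8 in 9). In EC, all 3 libraries lay above every library of the 7 other stages for 89 genes, beside a background of 7.45% of all genes. The count follows from the rule. The 3 exceptions were CG6244, CG18823 and *nos*. Spermatogonial levels had a median of 11.1% of EC, but most genes were not silent there: 65 had a read in each spermatogonial library, and 4 (CG14306, *OdsH*, *mura* and CG33464) had none in any.

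**Figure D1:**
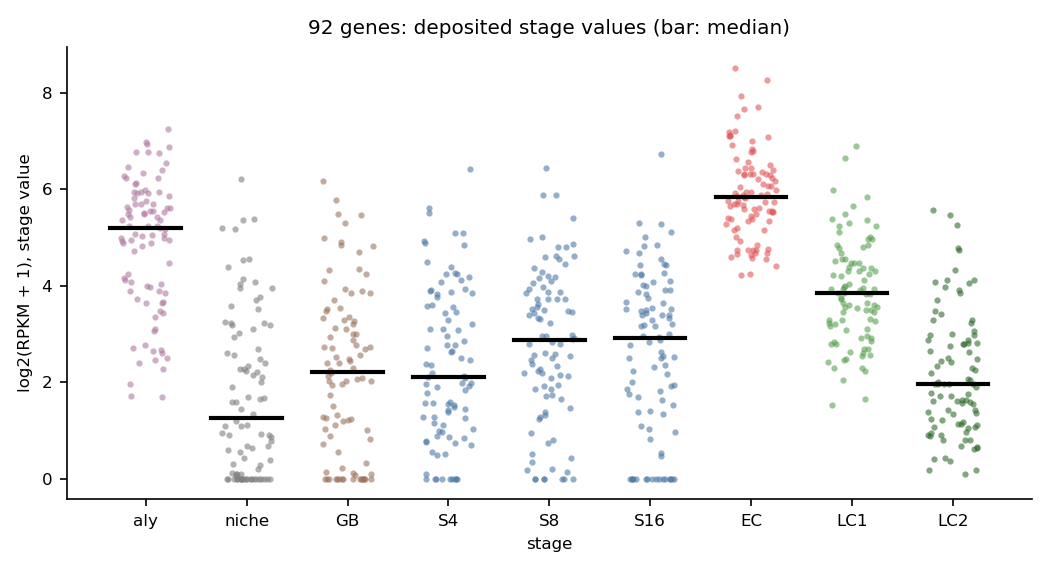
Stage values of the 92 genes as log2(RPKM + 1) on the vertical axis, with 1 point per gene in each stage on the horizontal axis and a bar at the median. EC is highest because the rule chose it, LC1 and LC2 are lower, and *aly* values spread widely around a median of 35.6 RPKM.

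Genes of RNA binding and processing (10) included the highest EC value of all. *Capr* (FBgn0042134; 3L, 18668153 to 18673324 on BDGP6.54) encodes Caprin, a translational regulator that partners FMR1. It stood at 119 and 130 RPKM in *aly* libraries and at 303, 370 and 427 in EC libraries, against 62.5 to 107 from niche to S16, 103, 127 and 123 in LC1 and 48.8, 32.4 and 48.9 in LC2. Its *aly* libraries overlap the range of LC1 and lie below all EC libraries. *nonA-l*, a relative of the RNA-binding protein NonA, stood at 106 and 126 RPKM in *aly* and at 301, 326 and 293 in EC, against 17.7 to 69.8 from niche to S16 and 34.3 to 121 in the late libraries. Both genes had their lowest late values in LC2.

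Several genes of the RNA group act in germline RNA silencing or in translation control. *Nxf3*, an export factor for piRNA precursors, had 5.70 and 4.88 RPKM in *aly* and 34.1, 54.7 and 46.9 in EC, against 0 in both niche and both GB libraries. Its S8 libraries held 10.4 and 7.75 RPKM, above both *aly* libraries. In BDGP6.54, exons of *Nxf3* overlap those of *ssp2* over 4496 bases. The length recovered from its values was only 1680 bases, so the overlap of the gene model that was counted is not known. It is also not stated whether reads were counted by strand, so reads of *Nxf3* cannot be assigned with certainty. CG14306, in current annotation a piece of the piRNA gene *qin*, had 10.6 and 19.1 RPKM in *aly* and 47.7, 64.3 and 84.0 in EC, and 1 read or none in each LC2 library. *nos*, encoding the translational repressor Nanos, varied most between EC libraries, at 8.94, 36.5 and 83.0 RPKM. Its *aly* libraries held 8.95 and 10.7 RPKM. Only EC libraries b and c stand above the 21.2 RPKM that it reached in LC1 library b. The helicase gene CG6227 (*Prp5*, of splicing) had stage values of 53.2 RPKM in EC, 14.3 in GB (0 and 28.6 in its libraries) and 3.89 in LC1.

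Chromatin and transcription accounted for 11 genes, with EC values of 17.9 to 86.1 RPKM. *MED14*, a Mediator subunit, was the highest of them, at 73.5 and 75.2 RPKM in *aly* and 82.8, 84.1 and 91.3 in EC, against 19.98, 34.3 and 28.6 in LC1 and 6.75, 2.17 and 6.49 in LC2. *Spt20*, a subunit of the SAGA coactivator, had 11.4 RPKM in both *aly* libraries and 53.98, 50.3 and 54.9 in EC, against 0 to 3.36 from niche to S16. *Hmt4-20*, a histone H4 methyltransferase, had stage values of 36.9 RPKM in *aly* and 78.8 in EC. *Kdm2*, a histone demethylase, had 53.1 in *aly* and 56.1 in EC. *fs(1)h*, a bromodomain protein of the BET family, had 35.3 in *aly* and 46.8 in EC, and *rno*, a PHD finger protein, had 42.2 in *aly* and 49.9 in EC. *OdsH*, a homeobox gene known for hybrid male sterility between *Drosophila* species, had no read in any library before EC. It held 48.9 and 43.0 RPKM in *aly* and 72.9, 67.4 and 36.3 in EC. Its LC2 libraries were far apart, at 33.1, 1.45 and 14.6 RPKM, against 5.58, 21.2 and 15.4 in LC1, so that the sets overlap. The stage value was 16.4 in LC2 and 14.1 in LC1, while the fitted log2 difference was -0.30.

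DNA repair was represented by *rad50* and *mus308*. *rad50*, of the MRN complex that processes double-strand breaks, stood at 36.2 and 47.5 RPKM in *aly* and at 83.7, 97.3 and 55.8 in EC, against 6.63, 27.3 and 10.7 in LC1 and 5.58, 1.98 and 6.33 in LC2. *mus308* encodes DNA polymerase theta, which joins broken ends. It held 68.3 and 81.0 RPKM in *aly* and 56.7, 87.5 and 79.3 in EC, so that the groups overlap, against 0.947 to 25.9 from niche to S16. Its exons overlap those of CG12279 over 253 bases.

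The cytoskeleton, its motors and its regulators accounted for 10 genes. *Khc*, the heavy chain of kinesin-1, stood at 101 and 115.5 RPKM in *aly* and 144, 136 and 138 in EC, against 13.7 to 44.2 from niche to S16, 19.0, 44.9 and 37.3 in LC1 and 13.7, 4.41 and 12.1 in LC2. *Gl*, the p150 subunit of the dynein partner dynactin, had 77.4 and 81.3 in *aly* and 96.6, 122 and 109 in EC. The actin regulators *ena* and *fliI* had stage values of 27.2 and 40.2 RPKM in *aly* and of 34.5 and 52.1 in EC.

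Growth and receptor signalling accounted for 13 genes, several of them in the Ras, Hippo and Tor pathways. Within Ras signalling, *Sos*, which loads Ras with GTP, had 72.4 and 79.6 RPKM in *aly* and 55.4, 57.5 and 69.8 in EC. *cnk*, a scaffold for Raf, had 11.2 and 9.05 in *aly* and 60.3, 72.4 and 80.5 in EC, and *Spred*, an inhibitor of the pathway, had 97.6 and 114.6 in *aly* and 132, 112 and 163 in EC. These genes thus share a peak but not a level in *aly*. In the Hippo pathway, the kinase genes *hpo* and *Tao-1*, which acts upstream of Hippo, had stage values of 59.8 and 5.31 RPKM in *aly* and 127 and 39.4 in EC. Inhibitors of Tor also split: *gig*, the fly TSC2, had 111 and 131 RPKM in *aly* and 77.3, 82.4 and 71.8 in EC, whereas *chrb*, a relative of REDD1, had 12.4 and 10.6 in *aly* and 26.3, 54.7 and 89.4 in EC. The *aly* libraries lie above all EC libraries for *Sos* and *gig*, and below all of them for *cnk*, *Tao-1*, *chrb* and *hpo*. *CycY*, cyclin Y, had 25.4 and 33.7 in *aly* and 118, 122 and 172 in EC. The Slit ligand gene *sli* and CG33464, which current annotation merges with it, had 5.50 and 5.82 RPKM in *aly* and 25.6 and 35.5 in EC, and they are 1 gene rather than 2 independent ones.

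Protein folding, turnover and autophagy accounted for 6 genes. CG2918 (*Grp170*), a chaperone of the endoplasmic reticulum, stood at 79.4 and 94.2 RPKM in *aly* and at 215, 254 and 264 in EC, against 40.6, 85.6 and 59.3 in LC1 and 30.2, 11.6 and 15.2 in LC2. CG9086 (*Ubr1*), a ubiquitin ligase of the N-end rule, had 59.01 and 61.4 in *aly* and 117, 146 and 170 in EC, against 2.95, 0.768 and 2.55 in LC2. The deubiquitinase gene *faf* had 44.5 and 52.8 in *aly* and 79.8, 119 and 127 in EC. CG1347 (*Atg17*, of autophagy initiation) had stage values of 15.3 RPKM in *aly* and 50.6 in EC.

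**Figure D2:**
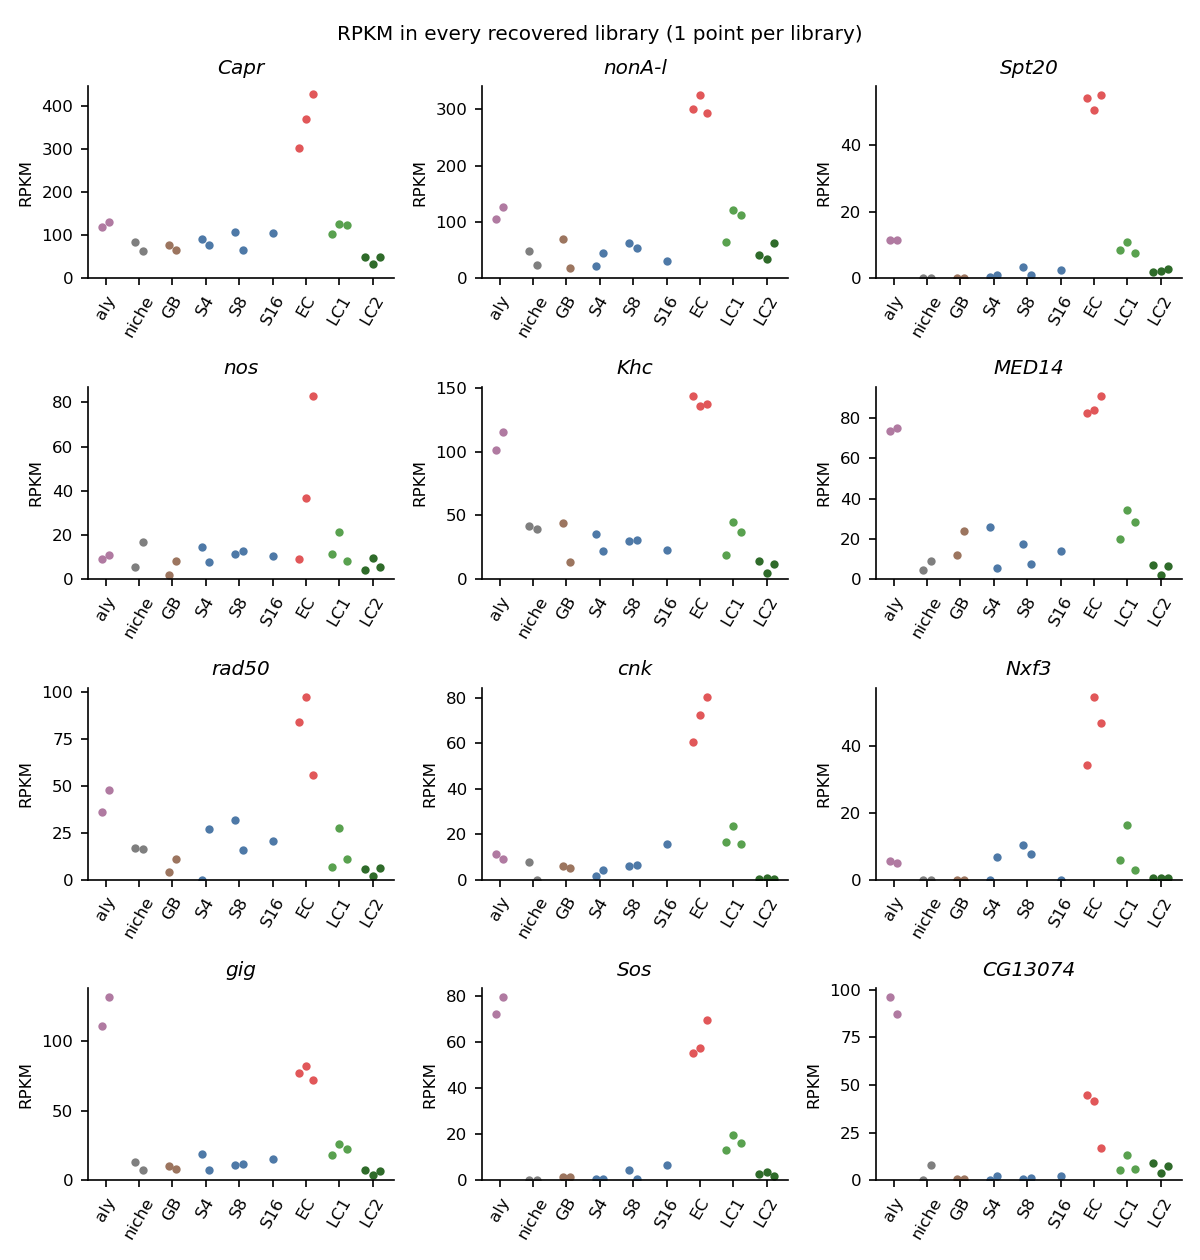
RPKM in every recovered library for 12 of the genes, with stages on the horizontal axis and 1 point per library. EC points stand above all earlier and late points except in *nos*, and the *aly* points range from above EC (*gig*, *Sos*, CG13074) to near the late levels (*cnk*, *Nxf3*).

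The other 40 genes had no role assigned here, and 17 of them lie on the X. CG2247 and CG15056 were the highest, with stage values of 150 and 108 RPKM in *aly* and 209 and 200 in EC. *PMCA*, a calcium pump of the plasma membrane, had 21.3 RPKM in *aly* and 80.4 in EC, with 3107 exonic bases shared with *Rnf11*. The small gene models mir-4977 and mir-4956 lie wholly within *Eaf* (105 bases) and *Sxl* (117 bases), so their reads cannot be told from those of their hosts. mir-4956 had only 3, 3 and 4 reads in EC libraries and 2 and 2 in *aly* libraries. Among all 92 genes, 23 overlap exons of another gene by at least 100 bases in BDGP6.54. Overlaps of the gene models that were counted can differ, because the recovered length was within 20% of that annotation in only 68 genes.

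Libraries of EC differed among themselves by a median of 1.47-fold between highest and lowest, the same as in all genes that reach 16 RPKM in EC. In 21 of the 92 genes the spread exceeded 2-fold, with library c highest in 10 of these, a in 8 and b in 3. The summed level of all 92 genes was 6315, 6950 and 7035 RPKM in EC libraries a, b and c. Other lists moved the other way between the same libraries: spermatid genes summed to 2883, 2380 and 911 RPKM and the tMAC and testis TAF list to 1524, 1261 and 730. Early germline regulators, a list that contains *nos*, summed to 686, 988 and 1092 RPKM. Their part in the spread of the 92 genes was not tested. Somatic cyst cell markers, 10 genes of which 10 had a value above 0 in EC, summed to 99.4, 74.9 and 143 RPKM in EC, against 150 to 194 in LC1. The defining markers went opposite ways by stage value: *tj* had 7.88 in EC and 1.21 in LC1, and *eya* had 10.5 and 47.6. *chinmo* (46.2) and *bnb* (23.5) had the highest EC values of the list. Gut protease markers summed to at most 4.94 RPKM in EC.

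**Figure D3:**
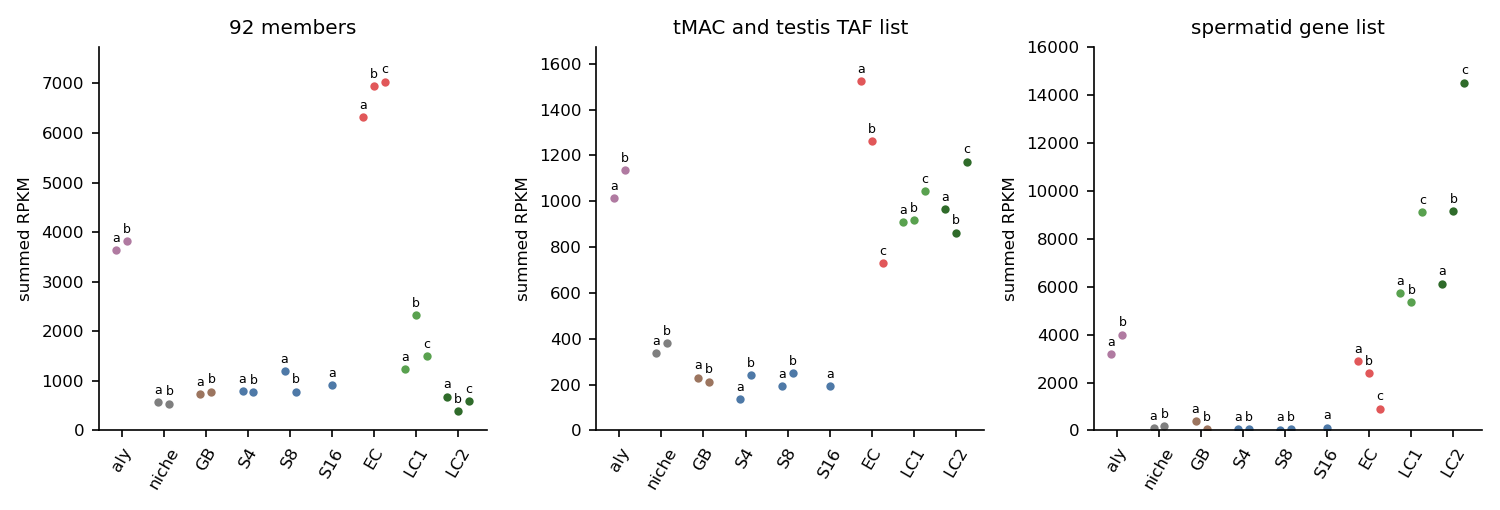
Summed RPKM per library (vertical axis, from 0) of the 92 genes, of 12 tMAC and testis TAF genes and of 26 spermatid genes, by stage on the horizontal axis, with letters naming libraries. EC library c is the highest of EC for the 92 genes (7035 RPKM) and the lowest for both other lists, and LC1 library b (2324 RPKM) stands above the other LC1 libraries for the 92 genes. Some spermatid genes come near the limit of 1 read per base in LC1 and LC2.

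Since *aly* spermatocytes arrest, the first question tested was how far their levels differ from EC. In the limma fit, 18 of the 92 genes fell in *aly* (Benjamini-Hochberg adjusted p under 0.05 over 12480 genes and at least 8 RPKM on the higher side), or 19.6%, against 7.11% of all genes and 13.6% of genes that reach 16 RPKM in EC. None rose, against 8.44% of all genes and 3.23% of those at 16 RPKM in EC. At an unadjusted p under 0.05, limma gave 0 higher and 30 lower. The share of all genes at that threshold is not given here, and the shares above do not apply to it. The median difference was -0.85 log2 units of RPKM + 1, against -0.20 for genes at 16 RPKM in EC and 0.16 for all genes tested. A high EC value was required of the 92 genes, so a lower value elsewhere is favoured by the choice, and the counts are read only beside those shares. No gene exceeded 1 read per base, a limit that stands for fewer RPKM in *aly* than in EC. The part of this limit in the calls was not tested. The number of lower calls was 7 without *aly* library a and 10 without *aly* library b. It was 29 with a pseudocount of 4 and 38 under quantile scaling.

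Among the genes that fell in *aly*, CG7900 stood at 2.50 and 2.03 RPKM in *aly*, against 15.1, 58.3 and 48.4 in EC. Its difference was -3.47 ± 0.76 (SE, adjusted p = 0.00429). CG1737 had 4.31 and 4.69 RPKM in *aly* and 36.3, 49.9 and 70.9 in EC, a difference of -3.23 ± 0.71 (adjusted p = 0.00432). The LC1 stage values of these genes were 7.54 and 3.92 RPKM. *CycY* (-2.17 ± 0.33, adjusted p = 2.51e-04), *Capr* (-1.54 ± 0.29, adjusted p = 0.00137) and *Spt20* (-2.12 ± 0.41, adjusted p = 0.00177) also fell, as did *Nxf3* (-2.86 ± 0.70, adjusted p = 0.00891) and *cnk* (-2.69 ± 0.66, adjusted p = 0.00884). Other calls included *PMCA*, *msn*, *chrb*, *Tao-1*, CG33464, CG10669, CG14446, *sli*, *RhoGAP1A* and CG42450. By role, 6 of 13 growth and receptor signalling genes fell, 3 of 10 RNA genes, 1 of 11 chromatin genes, 1 of 10 cytoskeletal genes, 7 of the 40 others, and 0 of the 2 DNA repair and 6 protein turnover genes, beside 7.11% of all genes and 13.6% of those at 16 RPKM in EC. Differences between roles were not tested. Sums over markers of other cells also differed. The haemocyte and fat body list summed to 93.2 and 91.0 RPKM in *aly*, against 38.9, 60.5 and 45.1 in EC. Its genes went opposite ways by stage value. *Hml* and *Pxn* had 26.9 and 36.5 in *aly* and 1.15 and 0.501 in EC. *Lsp2* and *Fbp2* had 2.51 and 2.79 in *aly* and 16.1 and 12.9 in EC. The somatic cyst cell list summed to 159 and 167 in *aly*, against 99.4, 74.9 and 143 in EC. In it *stet* had stage values of 33.6 in *aly* and 1.43 in EC, but *tj* had 0.579 in *aly* and 7.88 in EC. The hub list summed to 107 and 86.4 in *aly*, against 158, 161 and 182 in EC. Most of the hub sum in EC was *arm*, at 65.9 in *aly* and 151 in EC, whereas *esg* had 7.70 in *aly* and 1.42 in EC. The median difference over the hub list was 0.91 log2 units. The part of these lists in the calls was not tested. Calls in *cnk*, *Nxf3*, *RhoGAP1A*, *Tao-1*, *PMCA*, *msn* and *chrb* were lost on leaving out either *aly* library, and those in CG1737, CG10669 and CG14446 on leaving out library a.

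The share of the EC level found in *aly* varied widely, from 5.57% in CG7900 to 265% in CG13074, with a median of 54.4%, against 84.8% for genes at 16 RPKM in EC. It was under 25% in 20 genes, between 25 and 75% in 46 and above 75% in 26. By role, the median share was 74.99% for cytoskeletal genes and 74.7% for chromatin genes, against 47.2% for signalling, 43.3% for protein turnover and 33.9% for RNA genes. In 67 of the 92 genes both *aly* libraries lay below all EC libraries, against 24.6% of all genes. In 5 genes (*gig*, *Sos*, CG4049, CG13074 and *B4*) both lay above all EC libraries, but no difference passed the test. The share of all genes in that order is not given here, so this count is a description only. CG13074 had 96.0 and 87.2 RPKM in *aly*, against 45.1, 41.8 and 16.9 in EC, a difference of 1.49 ± 0.80 (limma adjusted p = 0.217). *gig* differed by 0.64 ± 0.43 (limma adjusted p = 0.350). CG1021 had 41.8 and 45.6 RPKM in *aly*, against 34.4, 28.1 and 51.4 in EC, and the groups overlap.

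**Figure D4:**
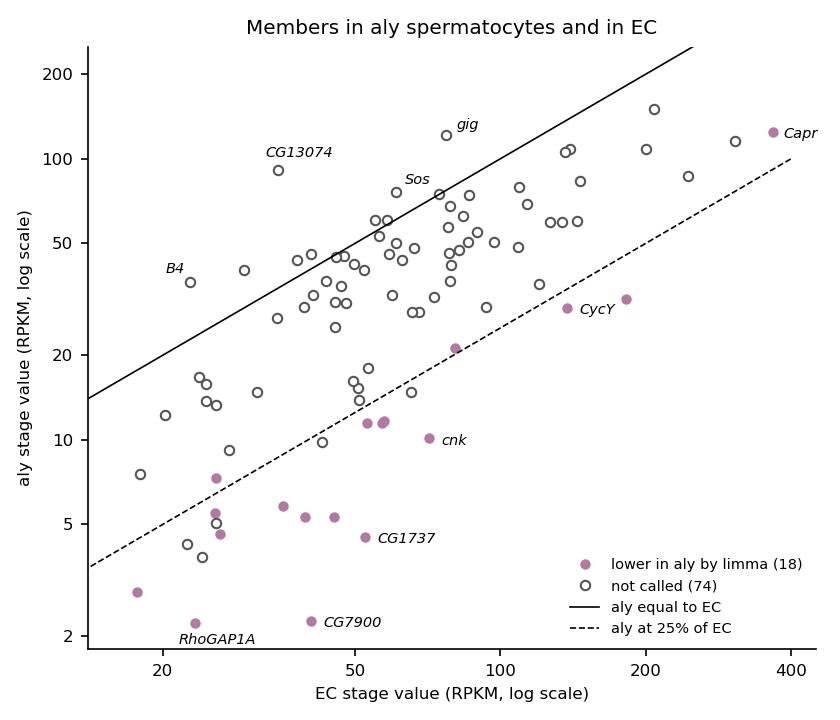
Stage values of the 92 genes in *aly* (vertical, log scale) and EC (horizontal, log scale), in RPKM. Filled points are the 18 genes that fell in *aly* by limma, open points the 74 not called, and the lines mark equal levels and 25% of EC; called genes extend down to 5.57% of EC.

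Levels in *aly* can also be set beside the late stages. Both *aly* libraries lay above all 6 late libraries in 62 of the 92 genes, against 29.6% of all genes. The rule holds late values low in these genes, so the excess is not read further. The stage value in *aly* was above that of LC2 in 91 genes and above that of LC1 in 81. The 11 genes below LC1 were *CycY*, *cnk*, *chrb*, CG6522, *Nxf3*, *nos*, CG7900, *Tao-1*, CG10669, *RhoGAP1A* and mir-4956. Of the 18 genes that fell in *aly*, only *Spt20* still had both *aly* libraries above all late libraries.

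Both late sets carry the same label, and the comparison of LC2 with LC1 asks whether the genes differ between them; the rule bounds each set against EC but not against the other. Because the rule used the values of both sets, the counts that follow are a description and are not read as support. Of the 92 genes 28 fell in LC2, or 30.4%, against 3.37% of all genes and 5.37% of genes at 16 RPKM in EC, and 0 rose, against 1.14% of all genes. At an unadjusted p under 0.05, limma gave 65 lower and 0 higher, again without a share of all genes at that threshold. The median difference was -1.61 log2 units, against -0.17 for genes at 16 RPKM in EC and -1.41 for those of them over 6 kb. By stage value LC2 was below LC1 in 91 of the 92 genes. It was also below in 65.2% of the 4545 genes that reach 16 RPKM in EC and lie in the same range of LC1 values. Every LC2 library was below every LC1 library in 78 genes, against 21.1% of all genes. LC2 held a median of 5.69% of the EC level and LC1 held 24.2%.

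Among the genes that fell most in LC2 were CG9086 (2.95, 0.768 and 2.55 RPKM in LC2, against 36.3, 52.1 and 42.5 in LC1) and CG8939. The difference was -3.92 ± 0.52 in CG9086 (limma adjusted p = 7.67e-04). CG3634 had 0.443, 0.767 and 0.368 RPKM in LC2, against 19.0, 22.7 and 17.1 in LC1 (-3.75 ± 0.37, limma adjusted p = 6.61e-05). *cnk* had 0.505, 0.738 and 0.473 in LC2, against 16.8, 23.7 and 15.8 in LC1 (-3.64 ± 0.59, limma adjusted p = 0.00271). The groups do not overlap in any of these. *Khc*, *Gl*, *gig*, *Sos*, *MED14*, *rno*, *fs(1)h*, *Hmt4-20* and *Capr* also fell. LC1 library b was the highest of LC1 in 88 of the 92 genes, and their summed level was 684, 389 and 591 RPKM in LC2 libraries a, b and c and 1233, 2324 and 1500 in LC1 libraries a, b and c. Spermatid genes summed to 6134, 9151 and 14531 RPKM in LC2 and 5749, 5355 and 9121 in LC1. No gene exceeded 1 read per base, a limit of 387 RPKM in LC1 and 546 in LC2. Some spermatid genes came near it, such as *betaTub85D* at 348 in LC1 and *Mst84Db* at 481 in LC2. The limit differs between libraries, and its part in these sums was not tested. Haemocyte and fat body markers summed to 243, 254 and 359 in LC2 and 97.2, 64.9 and 39.998 in LC1. Somatic cyst cell markers summed to 93.8, 112 and 88.5 in LC2 and 194, 150 and 168 in LC1. In that list only *so* was higher in LC2 by stage value, at 22.5 in LC2 and 15.8 in LC1. The sums did not overlap in either list, but genes of the haemocyte and fat body list went opposite ways by stage value. *Fbp2* and *Lsp2* had 140 and 90.7 in LC2 and 11.8 and 15.2 in LC1. *Fbp1* and *Yp3* were also higher in LC2. By contrast, *Hml* and *srp* had 1.46 and 5.74 in LC2 and 6.43 and 9.08 in LC1. *Pxn*, *Cg25C* and *vkg* were also lower in LC2. The part of these lists in the difference was not tested. The count of calls was 10 without LC1 library b, 14 without LC1 library c, 13 without LC2 library b and 14 without LC2 library c.

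Gene length was not part of the rule, and the genes were long. Their median length was 4036.5 bases, against 1815 for genes at 16 RPKM in EC, and 47 of them (51.1%) exceeded 4 kb, against 14.8%. Across genes at 16 RPKM in EC, the median log2 ratio of EC over late spermatocytes increased with length, from 0.09 under 1 kb to 1.11 over 6 kb, and that of EC over spermatogonia from -0.45 to 1.97. That of LC2 over LC1 decreased from 0.72 to -1.41. In the genes selected, the corresponding medians over 6 kb were 2.57, 2.62 and -1.80, and under 1 kb they were 2.23, 3.51 and -1.77. The fall in LC2 was therefore closest to that of the background, which includes the 92 genes, over 6 kb and furthest from it under 1 kb. Under 1 kb lie 7 of the 92 genes, and their medians of 2.23 and -1.77 are the values of mir-4956. It had 3, 3 and 1 reads in LC1 libraries and 0, 1 and 0 in LC2 libraries, so these medians rest on few reads. For *aly* over EC the median of the background stayed between -0.41 and -0.11 in all 5 length classes. When each difference was centred on the median of its length class, 55 genes passed the rule, of which 46 are among the 92. The part of length in these levels was not tested.

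**Figure D5:**
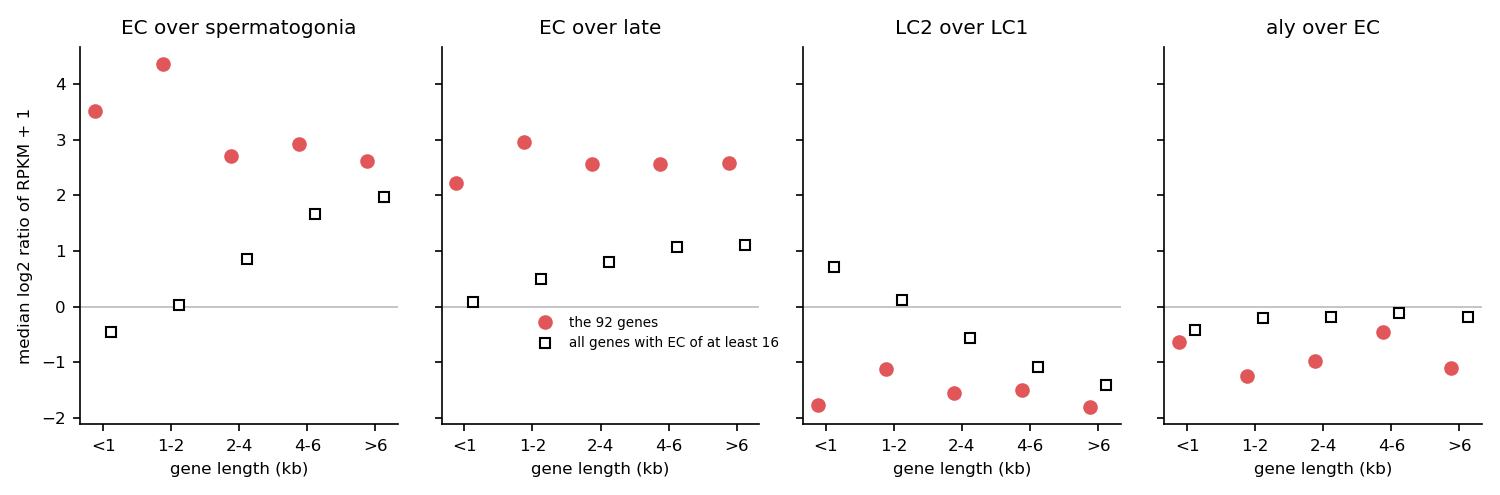
Median log2 ratios of RPKM + 1 (vertical axis) by gene length class in kb (horizontal axis) for the 92 genes (circles) and for all genes with at least 16 RPKM in EC (squares). Ratios of the background climb with length for EC over spermatogonia and EC over late, decline for LC2 over LC1 and stay nearly level for *aly* over EC.

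The X chromosome carried 32 of the 92 genes (34.8%), against 16.3% of the 6058 placed genes at 16 RPKM in EC. The other genes lie on 3L (19), 2R (16), 3R (15), 2L (8) and the 4th chromosome (*Ephrin* and *PMCA*). On the X the median LC2 level was 4.29% of EC, against 6.62% on the autosomes, and the median *aly* level was 45.5% of EC, against 57.3%. Among all genes at 16 RPKM in EC, *aly* stood at 91.7% of EC on the X and 83.8% on the autosomes, and LC2 at 50.8% on the X and 64.0% on the autosomes. X-linked genes made up 6 of the 18 that fell in *aly* and 10 of the 28 that fell in LC2, beside 34.8% of all 92 genes. The share of X-linked genes among all calls is not given here, so these counts are a description only. Median lengths were 3951.5 bases on the X and 4073.5 on the autosomes.

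Known regulators of spermatocytes were mostly not among the 92 genes. Of 12 genes found from the tMAC and testis TAF list, 7 were highest in EC of the 8 stages compared, but 0 exceeded the next stage 2-fold after 1 was added to both values, with *wuc* at 152 RPKM in EC and 150 in LC2. In *aly*, 1 of these 12 fell and 0 rose (7.11% and 8.44% of all genes, the shares to hold beside the list counts that follow), with a median of -0.25 log2 units. From the spermatocyte regulators, 6 of 15 were highest in EC and *Rbp4*, which encodes a spermatocyte RNA-binding protein, came closest to the rule with a ratio of 2.87; 1 fell in *aly* and 0 rose. Of 25 meiotic chromosome genes 5 were highest in EC at 16 RPKM or more, among them *mei-41*, the fly ATR kinase, with a ratio of 2.91, and *mei-W68*, the fly Spo11, with 2.42. Below 16 RPKM, *rec* (13.2 RPKM, ratio 2.89) and *nod* (15.4 RPKM, ratio 1.35) were also highest in EC. In *aly* 1 of the 25 fell and 4 rose. Early germline regulators had 6 of 12 highest in EC, and *nos* was the only one selected; *vas*, a germline helicase, had a ratio of 2.48. Of the 12, 3 fell in *aly* and 0 rose. None of 26 spermatid, 14 cup and comet, 15 meiotic cell cycle and 16 replication genes was highest in EC, and 2 of 15 mitosis genes were. In *aly* these 5 lists had 3, 6, 1, 3 and 2 genes that rose and 0 that fell. Hub, muscle sheath, haemocyte and fat body, and gut lists had no gene highest in EC, and the somatic cyst cell list had 1, *chinmo*, at 46.2 RPKM in EC and 45.8 in LC1. In *aly* these lists had 1 hub gene and 2 haemocyte and fat body genes that fell, and 1 muscle, 3 haemocyte and fat body and 1 somatic cyst cell gene that rose.

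The boundary of the rule falls in a continuous range. Just inside the ratio of 3 were CG9425 (3.003), *fs(1)h* (3.004) and mir-4956 (3.03), and just outside were CG5913, with 175 RPKM in EC and 57.5 in LC1, CG2025 (128 in EC and 42.0 in LC1) and *betaNACtes2* (84.4 in EC and 27.6 in LC1). At a ratio of 2, 342 genes passed, and at a ratio of 4, 20. Among those with the largest ratios were CG10915 (*Naus*, 6.57), CG33464 (6.53), CG14306 (6.05) and *sli* (5.66).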

How the data were processed

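The authors deposited 1 table with RPKM per stage for 12810 genes, headed cRPKM per the file headers, where each stage value is a mean of its libraries. The submitters' processing notes list Bowtie 0.12.7 and edgeR. Build, annotation, counting rules and treatment of duplicates: not given in the sources used here. No gene exceeded 1 read per base, a limit of 772 RPKM in EC, 387 in LC1 and 546 in LC2. Of these the 92 genes reached at most 47.5%, 30.4% and 8.48%. In *aly* the limit was lower, because 3 reads in a gene of 1 kb stand for 0.612 and 0.879 RPKM in its libraries. In EC libraries they stand for 1.85, 2.32 and 2.78 RPKM.

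Values times length are sums of whole reads times a constant per library. Reads of 20 libraries were solved from this for 12805 genes (relative tolerance 8e-15); the method was tested on simulated means. These libraries carry no replicate number. limma 3.58.1 in R 4.3.3 was fitted to log2(RPKM + 1) of all libraries with 9 group means and a variance trend (residual df 11, prior 3.90), on 12480 genes with at least 1 RPKM in 2 libraries. A lone library (S16) was assumed to vary like the others. Differences are log2 of RPKM + 1 and understate changes of low genes. Calls needed a two-sided Benjamini-Hochberg adjusted p under 0.05 and 8 RPKM on the higher side, and the fit was tested on simulated data. Positions are Ensembl BDGP6.54 (12208 identifiers matched; 6 of the 92 genes placed by symbol in RefSeq). The 92 genes, role groups and gene lists were chosen with earlier results of these data known. Named are the genes with the 10 highest EC values, 5 largest ratios and 6 highest and lowest *aly* to EC ratios, those with known function and those at the threshold. Floors cover only counting error, because amplified cDNA reads are not independent molecules. Alternatives were other pseudocounts, filters, scalings, thresholds and leaving out each library. Some of the 92 genes, including some that meet the rule for naming, are not reported here by name.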

Additional observations from a re-analysis of the deposited data

How the results depend on the processing

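No paired analysis was possible because the recovered libraries carry no replicate number. The count of the 92 genes lower in *aly* was 18. It was 29 with a pseudocount of 4, 38 under quantile scaling and 7 to 20 when 1 library was left out, and it stayed at 14 to 18 under the other settings. The count lower in LC2 was 28, and 10 to 29 without 1 library. Counts of genes higher in *aly* or in LC2 stayed at 0 in every setting run. In place of 92 genes, the rule chose 342 at a ratio of 2, 20 at a ratio of 4, 64 under scaling to total reads (55 of the 92 shared), 62 with a pseudocount of 4, 55 with centring by length class and 77 to 110 without 1 EC or LC1 library. Centring by length, an equal median gene and leaving out LC1 libraries were chosen after seeing the data. With total reads as the scale, the median gene shifted by -0.10 log2 units in *aly*, -0.22 in EC, -0.37 in LC1 and -0.22 in LC2.

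For single genes, 94 differences were recomputed in 968 cases: 808 kept direction and call, 128 lost the call, 20 gained it and 12 changed sign. None of those that changed sign was called. *aly* minus EC became 0.0857 for CG2247 and -0.0632 for *mus308* under quantile scaling, and 0.0908 for *Kdm2* and 0.1001 for *l(2)gd1* under scaling to total reads. On leaving out 1 library it ranged between -0.0128 and 0.3445 for CG9170, -0.2742 and 0.2363 for *Kdm2*, -0.1634 and 0.1692 for *l(2)gd1*, -0.5249 and 0.0038 for *mura*, and -0.1615 and 0.1477 for *mus308*. The cause was not tested.

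Low values rest on few reads: 3 reads in a gene of 1 kb stand for up to 3.22 RPKM. Leaving out an *aly* library leaves 1, assumed to vary like the other groups. Strand use and duplicate handling are not given, so overlapping genes stay uncertain. Motifs and sequences of these genes were not analysed here.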
